A study of Homo sapiens with 2 samples.

Results

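The primary granules of neutrophils, also called azurophil granules, are filled at the promyelocyte stage, the stage at which the leukaemic cells of acute promyelocytic leukaemia stop maturing. They carry myeloperoxidase, a family of serine proteases and antimicrobial proteins, packed on the proteoglycan serglycin. LDB1 is a nuclear adaptor that dimerises and gathers basic helix-loop-helix, GATA and LMO proteins at enhancers and promoters. The LDB1 peaks at 10 primary granule genes are described here. The genes were picked by name from what their products do, with earlier results of these data known. A peak was counted for a gene when its midpoint lay inside the gene or no more than 10 kb outside it. A wider window of 50 kb was also used. The members are MPO, ELANE, PRTN3, AZU1, CTSG, CTSC, SRGN, RNASE2, RNASE3 and BPI, 10 of the 19974 genes for proteins on the autosomes and chromosome X.

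Sites were mapped by CUT&Tag, in which an antibody tethers the Tn5 transposase so that DNA near its target is cut and tagged. The cells were untreated NB4, an established human acute promyelocytic leukaemia line that carries PML::RARA. There was 1 library with an LDB1 antibody and 1 with IgG. The LDB1 peak list was used, and IgG values were not analysed here. Of its 53742 peaks, 977 lay on contigs outside the autosomes and chromosome X and were not assigned to genes. The remaining 52765 had a median width of 550 bp. Neither library had a replicate, the depth was unknown, and a peak had a position and a width but no height, so no test between samples was possible. No value here separates LDB1 binding from open chromatin that Tn5 cuts on its own. Coordinates are hg38, counted from 1.

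LDB1 peaks lay at MPO and in the AZU1, PRTN3 and ELANE cluster of chromosome 19, and the other 6 members had none within 10 kb. Within 10 kb, 4 of the 10 genes had a peak, 40% (exact 95% Clopper-Pearson interval 12.2 to 73.8%), where 70.1% of all protein-coding genes did. Within 50 kb the count was 6 of 10, 60% (26.2 to 87.8%), against 86.1%. The intervals cover counting error only and treat the genes as independent, which the 3 neighbours on chromosome 19 are not. The shares of all genes lie inside both intervals. The median number of peaks within 10 kb was 0 for the 10 genes and 1 for all protein-coding genes. Short genes offer a smaller window, and 8 of the 10 members were at most 20 kb long. Among the 8983 protein-coding genes of at most 20 kb, 64.6% had a peak within 10 kb and 83.8% within 50 kb. A peak midpoint inside the gene was found for 3 of the 10 members (30%), against 54.5% of all protein-coding genes and 42.4% of the short ones. The count of members was still 3 at 5 kb, where 65% of all protein-coding genes had a peak, it was 5 at 20 kb (76.5%) and 8 at 100 kb (92.5%).

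**Figure D1:**
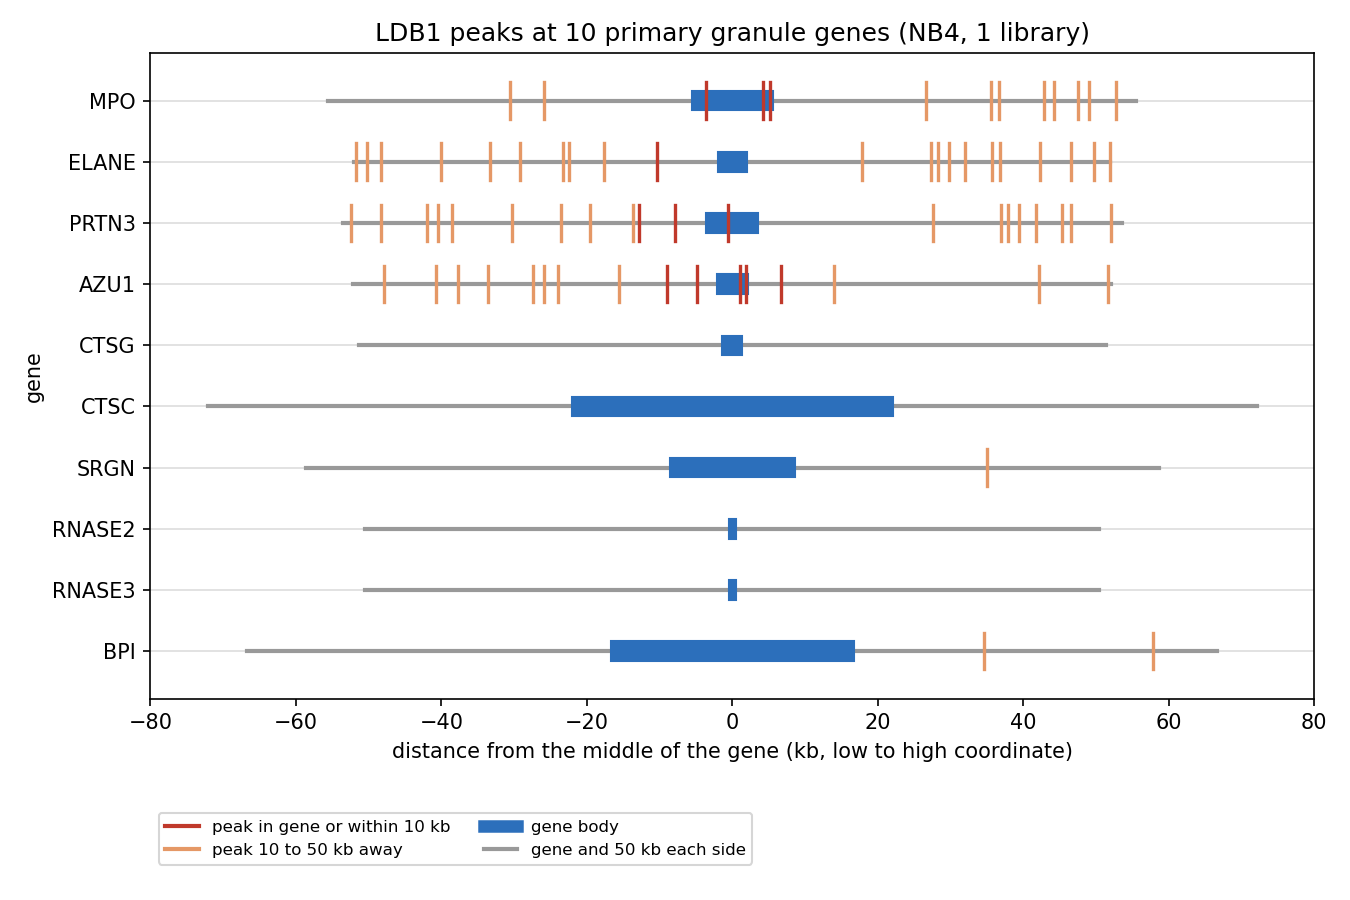
LDB1 peaks at each of the 10 genes, with the distance from the middle of the gene in kb on the horizontal axis and a row for each gene. Blue boxes are gene bodies, grey lines add 50 kb to each side, dark ticks are peaks in the gene or within 10 kb, and light ticks are peaks farther out. MPO and the 3 genes of chromosome 19 hold nearly all ticks, while CTSG, CTSC, RNASE2 and RNASE3 have none.

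The number of distinct peaks was smaller than the sum over genes. Within 10 kb the genes were given 12 peaks in all, which were 9 distinct peaks, since 3 were counted for more than 1 neighbour. Of the 9, 6 had their midpoint inside a member, 1 lay in another protein-coding gene and 2 lay outside protein-coding genes. Within 50 kb the 73 assignments came from 41 distinct peaks. Only 6 of those 41 lay in a member's body, while 28 lay in another protein-coding gene and 7 outside protein-coding genes.

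MPO, which encodes myeloperoxidase, the haem enzyme that makes hypochlorous acid and the usual stain marker of myeloid blasts, had 3 peaks, all of them inside the gene (chr17:58269855-58280935, 11.1 kb). They were 538 bp (chr17:58271495-58272032), 689 bp (chr17:58279294-58279982) and 372 bp (chr17:58280340-58280711) wide. The last 2 were 357 bp apart, and the midpoint of the 372 bp peak was 410 bp inside the high-coordinate end of the gene. The 538 bp peak had its midpoint 1.91 kb inside the low-coordinate end. Together the 3 peaks covered 1599 bp, 14.4% of the gene. At least 3 peaks in the body were found in 613 of 5823 protein-coding genes of 5 to 20 kb, 10.5%. MPO and AZU1 were the 2 members with a peak midpoint within 1 kb of a gene end, 20%, where 37.6% of all protein-coding genes and 36.9% of those of at most 20 kb had one.

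Beyond its own body MPO had no further peak within 20 kb on either side. Of its 13 peaks within 50 kb, 2 lay in LPO, the neighbouring lactoperoxidase gene, 332 and 642 bp wide, and 8 lay in TSPOAP1 on the other side. Those in TSPOAP1 ran from 351 to 1455 bp, so the widest of them was wider than any peak inside MPO. EPX, the eosinophil peroxidase gene and the third peroxidase of the locus, had 4 peaks within 10 kb, the widest of 790 bp. In their bodies MPO, LPO and EPX held 3, 2 and 3 peaks. A peak in the body was found in 54.5% of all protein-coding genes and 42.4% of those of at most 20 kb. Of the 19 other protein-coding genes with midpoints within 500 kb of MPO, 16 had a peak within 10 kb, 84.2%.

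AZU1, PRTN3 and ELANE stand in a row on chromosome 19 and span 28.4 kb from the start of AZU1 to the end of ELANE. AZU1 encodes azurocidin, an antimicrobial homologue of the serine proteases that has lost protease activity. PRTN3 and ELANE encode proteinase 3 and neutrophil elastase, which cleave matrix and bacterial proteins. The 250 bases before the RefSeq start of AZU1 and of PRTN3 are shown because no peak reached them although peaks lay on either side. ELANE, MPO, SRGN and BPI have no entry in that promoter table. Capitals mark matches to 6 kinds of motif, searched on both strands. An E-box was CAGCTG, or else the letters CAGGTG. The match called GATA was AGATAA, or else the letters TGATAA. A CEBP match was TTGCNNAA. A PU.1 match was AGAGGAA, or else the letters GAGGAAG, and these can overlap each other. A RUNX match was TGTGGT, or else the letters TGCGGT. A MYB match was AACGG, or else the letters AACTG. Both sequences are read 5′ to 3′ on the gene's strand, GRCh38.p14.
AZU1 (chr19:827587-827836, plus strand): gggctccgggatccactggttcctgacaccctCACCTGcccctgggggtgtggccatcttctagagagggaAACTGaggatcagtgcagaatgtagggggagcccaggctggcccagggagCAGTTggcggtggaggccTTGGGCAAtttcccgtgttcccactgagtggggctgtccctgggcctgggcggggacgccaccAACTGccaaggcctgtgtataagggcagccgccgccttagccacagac
PRTN3 (chr19:840749-840998, plus strand): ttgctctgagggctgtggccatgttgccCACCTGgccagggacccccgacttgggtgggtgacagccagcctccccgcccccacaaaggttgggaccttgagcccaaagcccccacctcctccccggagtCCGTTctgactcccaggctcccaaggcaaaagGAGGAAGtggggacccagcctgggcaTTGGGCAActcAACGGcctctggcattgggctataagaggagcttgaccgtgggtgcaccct

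Both promoters held an E-box (CACCTG as read), a CEBP match (TTGGGCAA as read) and MYB matches, and that of PRTN3 held a PU.1 match as well. Over 15810 RefSeq promoters of protein-coding genes, 27.7% held an E-box match in the same 250 bases, 7.24% a CEBP match, 15.4% a PU.1 match and 44.4% a MYB match. A match is a run of letters and not a measured site.

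AZU1 (chr19:827837-832018) had 5 peaks within 10 kb, the most of the 10 genes, and 17.1% of all protein-coding genes had at least as many. Upstream of its start lay a peak of 325 bp with its midpoint 2.76 kb away (chr19:824914-825238) and a peak of 707 bp 6.82 kb away, inside the neighbouring gene PLPPR3. Inside the gene lay a peak of 387 bp (chr19:830773-831159) and a peak of 507 bp (chr19:831561-832067), which reached across the gene's downstream end. The fifth, 416 bp wide (chr19:836474-836889), lay between AZU1 and PRTN3. The peaks of AZU1 thus lay on both sides of the gene and toward its downstream end, with none between 2.76 kb upstream and 3.13 kb downstream of the start by midpoint.

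PRTN3 (chr19:840999-848175) had 3 peaks within 10 kb. Its only own peak was 332 bp wide (chr19:843802-844133), with the midpoint 2.97 kb downstream of the start. The other two were the 416 bp peak 4.32 kb upstream, shared with AZU1, and the 507 bp peak across the end of AZU1. ELANE (chr19:852303-856243) had 1 peak within 10 kb, the 332 bp peak in PRTN3, whose midpoint lay 8.34 kb from it. ELANE itself was free of peaks: the stretch without a peak around it ran 27.8 kb (chr19:844134-871956) and also held CFD, the gene of complement factor D. It was 1 of 7 members that lay wholly in a stretch without a peak, as did 42.2% of all protein-coding genes.

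**Figure D2:**
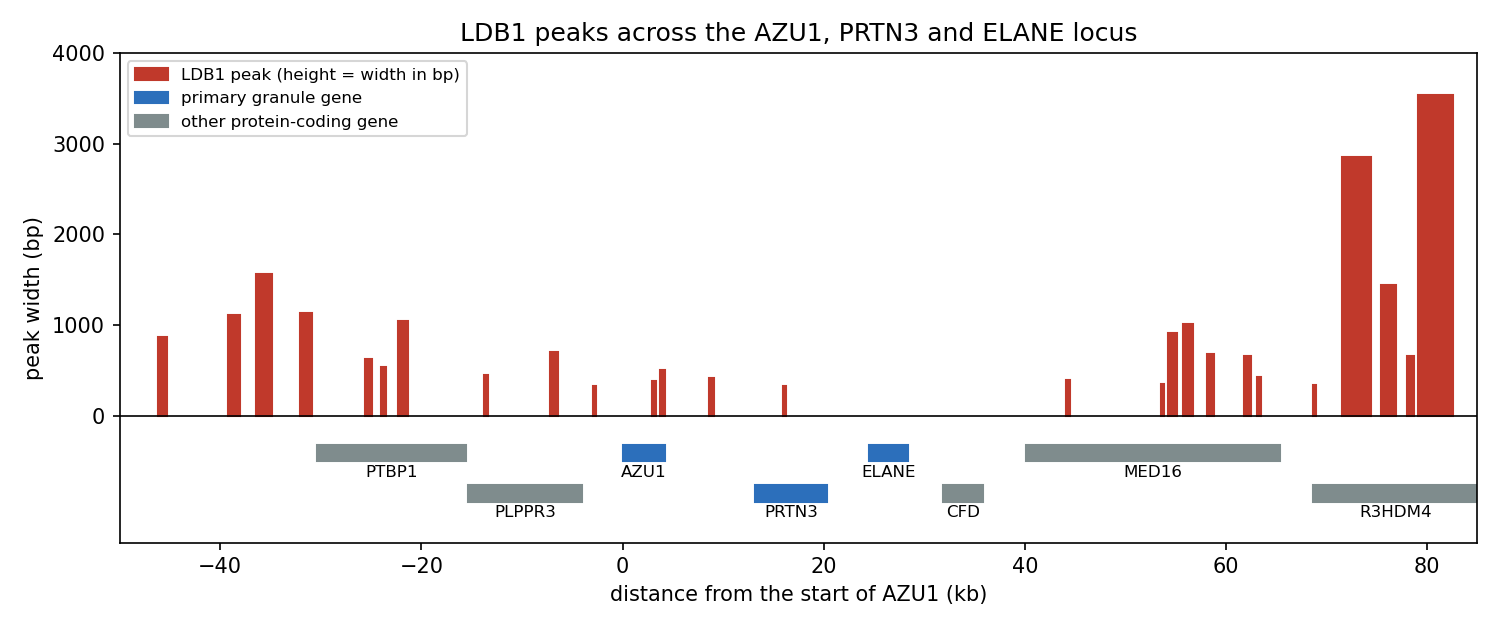
LDB1 peaks around AZU1, PRTN3 and ELANE, with the distance from the start of AZU1 in kb on the horizontal axis and the peak width in bp as bar height. Bars are drawn to scale in position and width, and boxes under them are genes. Apart from the 707 bp peak in PLPPR3, the peaks within 10 kb of the 3 granule genes are 325 to 507 bp wide. No peak lies over ELANE or CFD, and the peaks in R3HDM4 reach 3541 bp.

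AZU1, PRTN3 and ELANE lie in a part of chromosome 19 that is dense in peaks. The 500 kb to either side of them held 227 peaks, 221 per Mb, and all 41 other protein-coding genes with midpoints there had a peak within 10 kb. Across the whole of chromosome 19, 79.5% of the protein-coding genes had one. The presence of peaks at AZU1, PRTN3 and ELANE is therefore shared with every gene around them, and whether it belongs to the granule genes or to their region cannot be told apart. The stretch that holds ELANE was long for this region: the median stretch between neighbouring peaks there was 1.98 kb, and 3 of 227 were at least as long as that of ELANE, itself included. Genome-wide it was ordinary, since 38.9% of the protein-coding genes lay wholly in a stretch without a peak at least as long. Within 50 kb AZU1, PRTN3 and ELANE had 16, 20 and 21 peaks, most of them in PTBP1, PLPPR3, MED16 and R3HDM4, or outside genes.

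Most peaks within 10 kb of the granule genes were narrower than the median of all peaks, though their own median lay between the quartiles. The 9 distinct peaks within 10 kb had a median width of 416 bp and ran from 325 to 707 bp, where all 52765 peaks had a median of 550 bp and quartiles of 408 and 816 bp. Of the 9, 2 were at or above 550 bp, the 689 bp peak of MPO and the 707 bp peak in PLPPR3, and 0 reached 816 bp. The 332 bp peak in PRTN3 was near the lower end of the list, and 97.1% of all peaks were at least as wide. The 41 distinct peaks within 50 kb had a median of 627 bp, and 13 of them reached 816 bp.

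**Figure D3:**
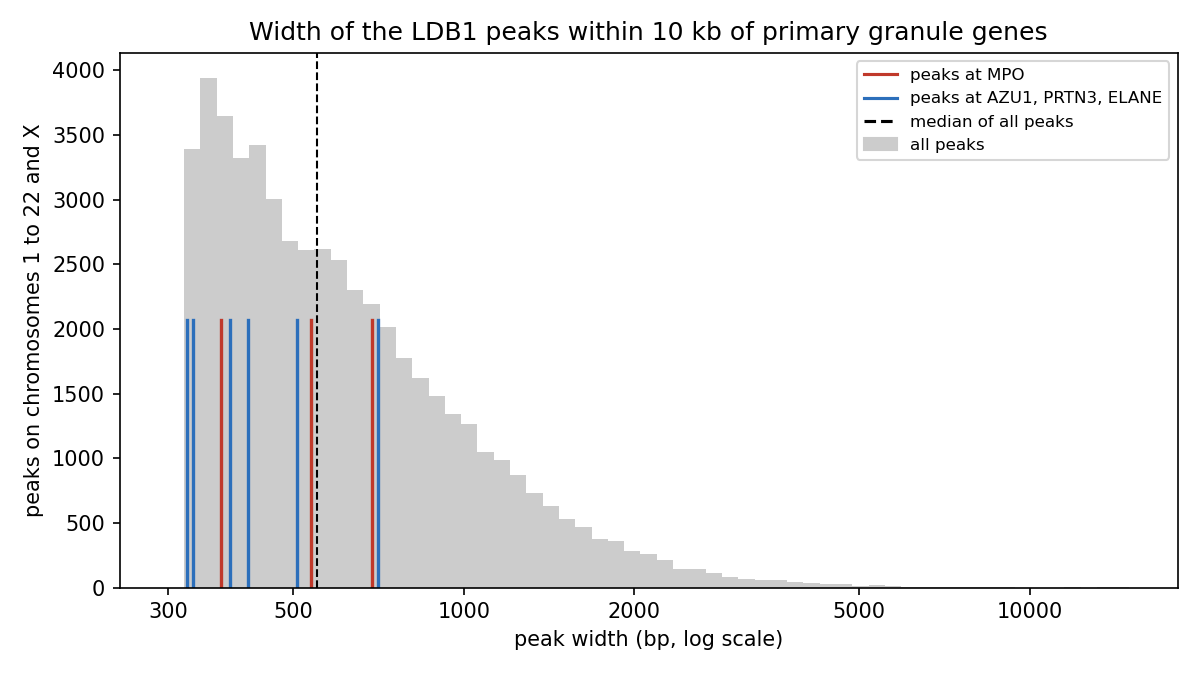
Widths of the 9 distinct LDB1 peaks within 10 kb of primary granule genes (coloured lines) over the histogram of all 52765 peak widths in bp on a log axis. The 9 lie between 325 and 707 bp, and 7 of them are below the median of 550 bp (dashed line).

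CTSG, which encodes cathepsin G, the granule protease of the chymase locus on chromosome 14, was the member farthest from a peak. Its gene (chr14:24573518-24576250) lay 131 kb from the nearest peak midpoint, and 5.52% of all protein-coding genes were as far or farther. The stretch without a peak around it was 606 kb long and held 4 protein-coding genes: the mast cell chymase gene CMA1, CTSG, and the granzyme genes GZMH and GZMB. The whole protease cluster was thus without a peak. Of the 38 other protein-coding genes with midpoints within 500 kb of CTSG, 20 (52.6%) had a peak within 10 kb, and on all of chromosome 14 55.9% did. The 250 bases before the start of CTSG are shown as the counterpart of the other serine protease promoters. They held an E-box, 3 PU.1 matches, of which 2 overlap, and a MYB match.
CTSG (chr14:24576251-24576500, minus strand): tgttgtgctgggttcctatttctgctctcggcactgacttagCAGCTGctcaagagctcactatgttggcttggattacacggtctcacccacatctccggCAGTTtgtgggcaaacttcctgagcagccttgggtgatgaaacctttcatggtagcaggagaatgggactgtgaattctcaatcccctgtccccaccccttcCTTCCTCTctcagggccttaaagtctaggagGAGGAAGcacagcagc

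RNASE2 and RNASE3, which encode eosinophil-derived neurotoxin and eosinophil cationic protein, ribonucleases better known from eosinophil granules, also lie on chromosome 14, 63.1 kb apart. RNASE2 (chr14:20955487-20956436) was 119 kb from the nearest peak midpoint and RNASE3 (chr14:20891385-20892348) was 55.2 kb from the same peak. Of all protein-coding genes, 6.14% and 12.9% were as far or farther. Both sat in a stretch of 256 kb without a peak that held 10 protein-coding genes, RNASE7, RNASE8 and RNASE13 among them. RNASE1, RNASE4, RNASE6 and ANG, the other genes of the ribonuclease A family that were looked up, had no peak within 10 kb either. Of the 31 other protein-coding genes with midpoints within 500 kb, 7 had a peak within 10 kb, 22.6%.

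RNASE2 and RNASE3 are recent duplicates, and their promoters are shown because reads from near-identical sequence may align to either copy. Of the 300 bases around each start, 249 could be aligned, and 242 of these (97.2%) were identical. How the authors treated reads that align to several places is not given in the sources used here, so the absence of peaks at this pair is less certain than at the other members. Both printed stretches held the same CEBP match (TTGCACAA) and MYB matches. That of RNASE2 also held an E-box, 18 to 13 bases before its start. The printed RNASE3 stretch ends at the base that matches the first base of this E-box. The bases after it in RNASE3 lie past its start and were not searched, so a difference between the copies is not shown.
RNASE2 (chr14:20955237-20955486, plus strand): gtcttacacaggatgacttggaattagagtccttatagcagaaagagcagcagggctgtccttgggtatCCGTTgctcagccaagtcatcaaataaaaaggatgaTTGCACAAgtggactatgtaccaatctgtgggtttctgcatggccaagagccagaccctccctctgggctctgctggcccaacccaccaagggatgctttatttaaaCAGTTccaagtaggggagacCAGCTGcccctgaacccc
RNASE3 (chr14:20891135-20891384, plus strand): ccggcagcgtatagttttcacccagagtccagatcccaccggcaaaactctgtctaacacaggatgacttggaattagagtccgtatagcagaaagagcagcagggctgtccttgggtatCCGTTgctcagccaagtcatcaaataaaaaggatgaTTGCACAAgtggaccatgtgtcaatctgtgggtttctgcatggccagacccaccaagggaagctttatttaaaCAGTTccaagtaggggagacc

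CTSC encodes cathepsin C, the dipeptidyl peptidase that activates the granule serine proteases by trimming their amino termini. The gene (chr11:88293592-88337736) is the longest of the 10 at 44.1 kb and had no peak in its body. The nearest peak midpoint was 52.6 kb away, just outside the wider window, and 13.4% of all protein-coding genes were as far or farther. CTSC lay in a stretch of 267 kb without a peak that held no other protein-coding gene. Only 3 peaks lay within 500 kb of CTSC, 2.87 per Mb. There were 2 other protein-coding genes with midpoints in that range, and both had a peak within 10 kb.

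SRGN, which encodes serglycin, the proteoglycan core on which granule proteases are stored, had no peak within 10 kb and 1 within 50 kb. That peak, 485 bp wide, lay 26.5 kb from SRGN inside VPS26A (chr10:69131030-69131514). SRGN (chr10:69087603-69104811) was the last gene, by coordinate, in a stretch of 428 kb without a peak that held 6 protein-coding genes, CCAR1, STOX1, DDX50, DDX21, KIFBP and SRGN. Of all protein-coding genes, 8.5% lay wholly in a stretch as long or longer, and 20.7% were as far or farther from the nearest peak midpoint. Among the 13 other protein-coding genes with midpoints within 500 kb of SRGN, 7 had a peak within 10 kb, 53.8%.

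BPI, which encodes the bactericidal permeability-increasing protein that binds lipopolysaccharide, had no peak in its 33.4 kb (chr20:38304156-38337505) or within 10 kb. The nearest peak, 621 bp wide, lay 18.0 kb away inside LBP (chr20:38355189-38355809), the gene of the related lipopolysaccharide-binding protein of liver and plasma. As far or farther from a peak were 24.6% of all protein-coding genes. A second peak of 421 bp lay 41.2 kb from BPI. Of the 12 other protein-coding genes with midpoints within 500 kb of BPI, 6 had a peak within 10 kb. Among them TGM2 had 11, the widest of 1660 bp.

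**Figure D4:**
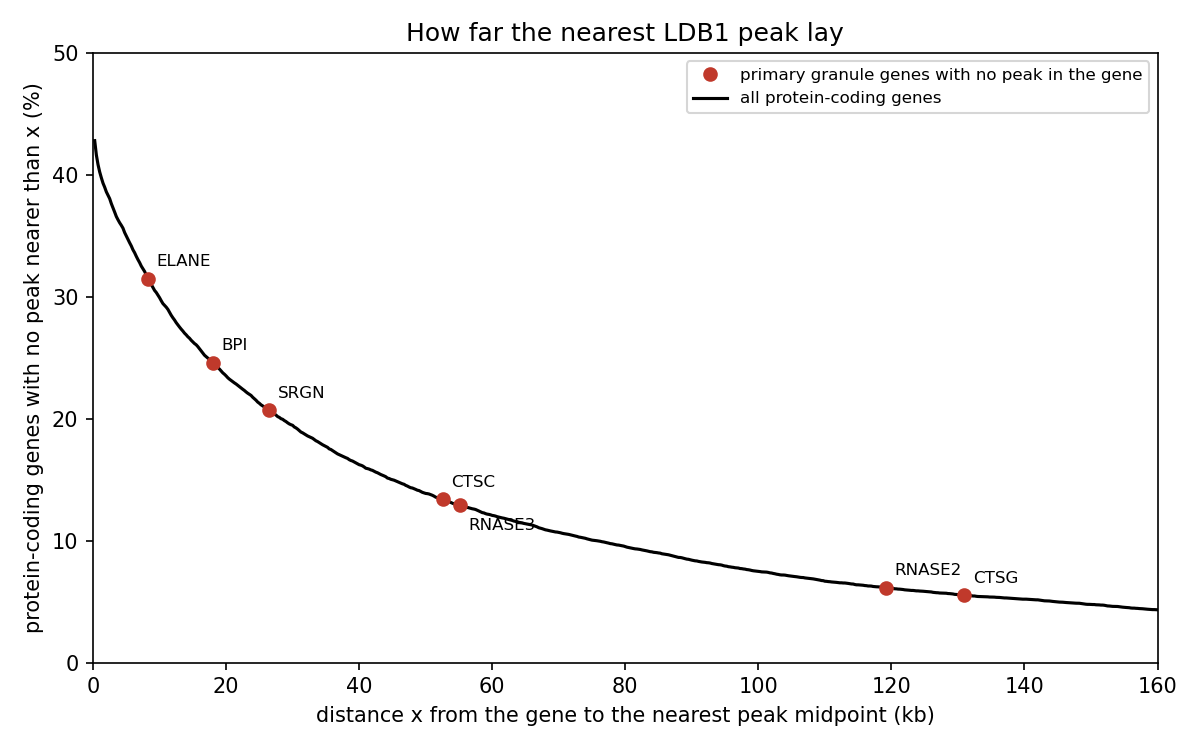
Distance from the gene to the nearest LDB1 peak midpoint in kb, against the percentage of protein-coding genes with no peak nearer than that (line), with the 7 members that had no peak in the gene marked as points. The points run from ELANE at 8.34 kb and 31.5% to CTSG at 131 kb and 5.52%.

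Transcription starts could be placed for the 6 members in the RefSeq promoter table, PRTN3, AZU1, CTSG, CTSC, RNASE2 and RNASE3. A peak midpoint within 1 kb of the start was found for 0 of the 6, and a peak over any part of the 300-base window for 0 of the 6. MPO, which has a peak midpoint within 1 kb of its high-coordinate end, is not among the 6. Whether that end is its start was not determined here. Of 15812 protein-coding genes in the table, 32.7% had a peak midpoint within 1 kb of the start and 24.7% had a peak over the window. Of the motifs, MYB matches were in 6 of the 6 promoters (44.4% of all promoters), E-box matches in 4 (27.7%), CEBP matches in 4 (7.24%) and PU.1 matches in 2 (15.4%). GATA matches were in 0, where 10.9% of all promoters held one, and RUNX matches in 0, where 15.3% did. The 4 with a CEBP match include the near-identical pair RNASE2 and RNASE3, so they are fewer than 4 independent sequences. The other CEBP matches, those of AZU1 and PRTN3, read the same as each other. They lay 111 to 104 bases before the start of AZU1 and 62 to 55 before that of PRTN3. Of the aligned bases around the starts of AZU1 and PRTN3, 66.1% were identical. For CTSG and PRTN3, on different chromosomes, the value was 60.7%. AZU1 and PRTN3 are also both among the genes with an E-box match. RNASE2 is another, while the matching bases of RNASE3 lay past its searched stretch.

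Other products of the same granule were looked up from a longer list. Of 25 further genes of azurophil granule proteins, most of them lysosomal enzymes made by many cell types, 18 (72%) had a peak within 10 kb, against 70.1% of all protein-coding genes, and 11 (44%) had one at a gene end, against 37.6%. Their median was 2 peaks within 10 kb. The widest peaks of that list were those of GALNS (10 peaks, widest 3728 bp), ARSB (6 peaks, widest 2092 bp), CTSD (2 peaks, widest 1922 bp) and PSAP (9 peaks, widest 1882 bp), which encode a sulfatase of keratan sulfate, arylsulfatase B, cathepsin D and the saposin precursor. Among the listed protease and antimicrobial genes, PRSS57, the gene of the fourth neutrophil serine protease, had 3 peaks (widest 1099 bp) and LYZ, the lysozyme gene, had 1 of 826 bp. The defensin gene DEFA4 had 1 of 338 bp, and DEFA1 and DEFA3, near-identical copies and so uncertain, had none. Secondary and tertiary granule genes, filled at later stages, had a peak within 10 kb in 8 of 16 (50%) and at a gene end in 6 (37.5%). Of 22 locus neighbours and paralogs of the members, a list that also holds PRSS57, 11 (50%) had a peak within 10 kb and 5 (22.7%) had one at a gene end. The exact intervals at 10 kb were 12.2 to 73.8% for the primary granule genes, 50.6 to 87.9% for the further azurophil genes, 24.7 to 75.3% for the later granules and 28.2 to 71.8% for the neighbours, so the intervals overlap, and no difference between them was tested. These intervals treat the genes of a list as independent, which genes of the same locus are not. Some neighbours share peaks with the members. Median gene length differed too, at 5.68 kb for the primary granule genes, 18.1 kb for the further azurophil genes and 9.44 kb for the later granules.

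**Figure D5:**
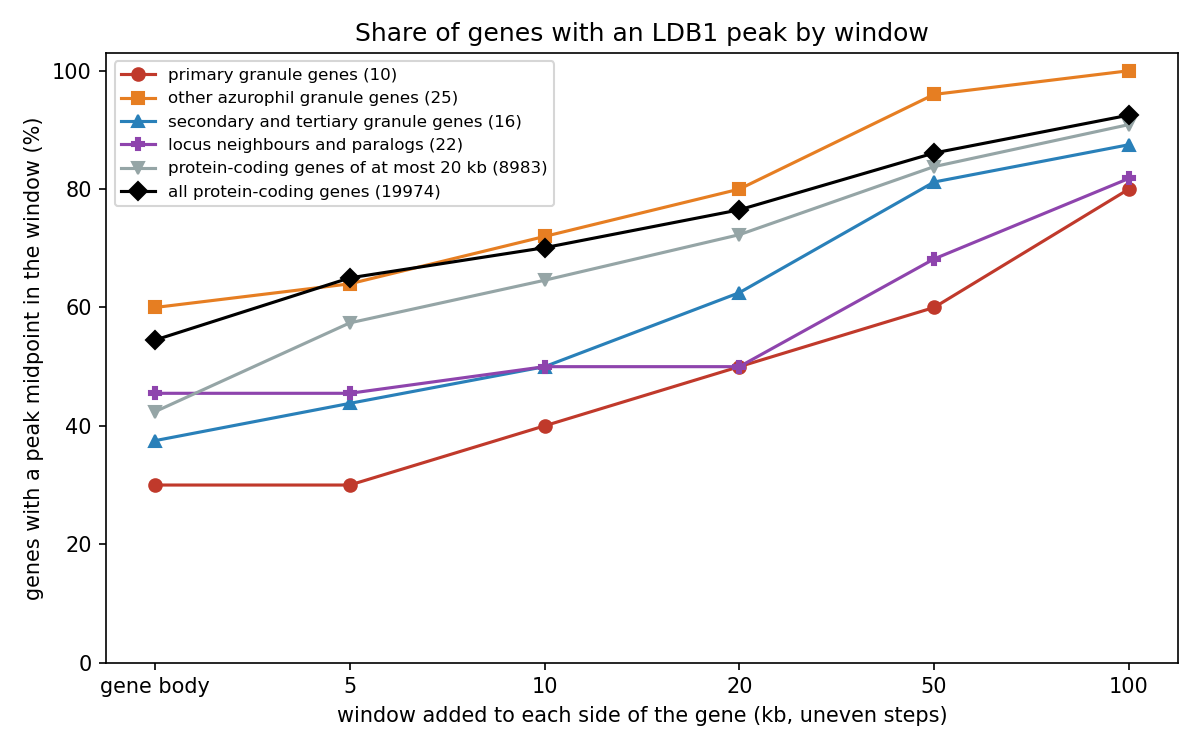
Percentage of genes with an LDB1 peak midpoint in the gene body or in a window added to each side, in kb with uneven steps, for the 10 primary granule genes, 25 further azurophil genes, 16 secondary and tertiary granule genes, 22 locus neighbours and paralogs, short genes and all protein-coding genes. The primary granule genes run from 30% in the gene body to 80% at 100 kb and share the 50% of the locus neighbours at 20 kb. The share of all protein-coding genes goes from 54.5 to 92.5%.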

How the data were processed

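LDB1 and IgG CUT&Tag libraries were made from untreated NB4 cells with the Hyperactive Universal kit of Vazyme, per the labels' protocols. The deposited LDB1 list gave, per the file headers, the chromosome, start, end and length of each peak in bp, with both ends of each of the 53742 peaks included in its length. Alignment and peak calling used Bowtie2 2.4.1, MACS2 2.0.10 and hg38, as named in the submitters' processing notes. Thresholds, duplicate handling and any control role of the IgG library are not stated in those notes or labels as used here, so peak number and width may depend on depth and threshold. Gene positions and promoters came from RefSeq tables of GRCh38.p14, and all 10 genes matched, 6 of them with a promoter.

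Peak midpoints were assigned to genes with Python 3.11.15 and pandas 2.3.3, and the assignment was tested on simulated peaks. Shares were set beside those of 19974 protein-coding genes, of genes of at most 20 kb and of genes within 500 kb. The members and lists were chosen with earlier results of these data known. All 10 members were named; of other lists, those with a peak at a gene end or the widest peaks, and genes lying near a member. DEFA1, DEFA3, DEFA4, LYZ and the ribonuclease, granzyme and peroxidase neighbours were also named after their values were seen. The alternatives changed the windows, the peak widths used, the assignment rule and the members.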

Additional observations from a re-analysis of the deposited data

How the results depend on the processing

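Of 30 alternatives over 5 counts, 15 stayed within 1.5 times the reported count and 15 did not. With the widest 50% of the peaks, 2 of the 10 genes had a peak within 10 kb (52.5% of all protein-coding genes) and 0 had one at a gene end (24.2%), with 2 distinct peaks within 10 kb and 23 within 50 kb. With the widest 25%, these counts were 0 (34.9% of all protein-coding genes), 0 (13.9%), 0 and 13. The members with a peak within 50 kb changed less. They numbered 5 with the widest 50% (71.3% of all protein-coding genes) and 4 with the widest 25% (52.5%). Without AZU1, PRTN3 and ELANE, 1 of the other 7 genes had a peak within 10 kb (70.1% of all protein-coding genes). Within 50 kb 3 had one (86.1%). These came from 3 and 16 distinct peaks. With 100 kb either side the distinct peaks numbered 85. At transcription starts 0 of the 6 placed genes had a peak, where 32.7% of the protein-coding genes in the promoter table did. MPO, which has a peak at a gene end, is not among the 6 and was not placed. A peak lay across an end itself for 1 gene (AZU1), an alternative chosen after seeing the data. Its share over all genes is not given here. Leaving out narrow peaks or genes lowers such counts by construction. No paired analysis was possible because there was 1 library per antibody and the counts come from no test. The depth behind the peaks was unknown, so a missing peak does not show that LDB1 was absent.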

Other observations

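A peak of 591 bp just outside the 50 kb window of MPO lay over the hairpin of MIR142 (chr17:58330754-58331344), a microRNA gene active throughout blood cells, 50.3 kb from MPO. It was looked up after the windows of MPO had been seen. Of the 4 microRNA hairpins within 100 kb of a member, MIR142, MIR4745, MIR3187 and MIR6717, 1 was under a peak, MIR142, while 153 of 1558 hairpins in the RefSeq table (9.82%) were. The products of the hairpin are shown with the seed, bases 2 to 8, in capitals (RefSeq, GRCh38.p14, minus strand).
hsa-miR-142-5p: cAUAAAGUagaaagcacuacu
hsa-miR-142-3p: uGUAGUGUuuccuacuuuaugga

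The 7 members without a peak in the gene differed in what else lay around them. CTSG, RNASE2, RNASE3, SRGN and ELANE each lay in a stretch without a peak together with at least 1 more protein-coding gene. RNASE2 and RNASE3 lay in the same stretch. CTSC and BPI were alone in theirs. Of all protein-coding genes, 42.2% lay wholly in a stretch without a peak, but how many of them were alone there was not counted. The stretches of the 7 genes ran from 27.8 kb at ELANE to 606 kb at CTSG, with 137 kb at BPI.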
